A study of Arabidopsis thaliana with 24 samples.

Results

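The chloroplast genome of Arabidopsis thaliana supplied 133 of the 33602 genes in the deposited count tables, taken as every gene whose identifier starts with ATCG. They hold 115 distinct sequences, because 18 identifiers are second copies in the inverted repeat, the duplicated stretch of the chloroplast chromosome. Of the 133, 88 encode proteins, 8 encode ribosomal RNA (rRNA) and 37 encode transfer RNA (tRNA), and 125 have the same start and end in the RefSeq annotation of the TAIR10 build. The study sequenced poly(A)-selected RNA from whole plants of 4 groups with 3 replicates each, and each replicate joins 2 libraries in 1 deposited column. Mutant lsm4 plants (allele lsm4-1, Col background) and WT Col plants grew on agarose with Murashige and Skoog medium and were harvested at 15 days. Mutant lsm5 plants (also called sad1, C24 background) and WT C24 plants grew on soil and were harvested at 30 days, before bolting. All 4 groups were kept at 22 °C in continuous light. LSM4 and LSM5 encode subunits of the Sm-like protein rings that act on nuclear-encoded RNA in U6 snRNP-dependent splicing and in mRNA decapping, so the chloroplast transcripts are not their textbook substrates. The design text names 2 weeks for all plants, unlike the harvest label of the lsm5 pair, and no source says whether replicates were grown apart. The p-values below therefore take in only the variation among these libraries, which may be technical.

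Chloroplast genes are transcribed by a plastid-encoded RNA polymerase (PEP), whose core subunits are made from rpoA, rpoB, rpoC1 and rpoC2, and by nuclear-encoded phage-type polymerases (NEP). PEP is the main enzyme for photosynthesis genes, and NEP for rpoB, rpoC1, rpoC2, accD, ycf1 and ycf2. Chloroplast mRNAs do not carry the stable 3′ poly(A) tail of nuclear mRNAs: in plastids, short A-rich tails mark RNA for decay by polynucleotide phosphorylase. A read count here is therefore a level of captured RNA, not of all chloroplast RNA. In whole plants, fewer cells with chloroplasts and less RNA per cell cannot be told apart.

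Genomic runs of A are shown for members described below, since selection was on poly(A). Each line gives 30 bases of the gene's own strand in TAIR10 around its longest run of A over the gene's span, introns included, with that run in capitals.
rpoA: aacctaagAAAAAAAAAAAAAAcaaaagaa
rpoC2: gagtagagAAAAAAAAAAAAAggattgaac
rpoB: cgataaggagAAAAAAAAAAtaggatcaaa
rpoC1: actcccaaatAAAAAAAAAggcgattggtc
psbA: ataactagcactgAAAAccgtctttacatt
rbcL: gggttatccgcgAAAAActatggtagagca
rpl2: ccaattggtagAAAAAAAcccgtaaccccc
The run in rpoA (Pt:78087-78116, minus strand), 14 bases long, is the longest among the 81 distinct protein-coding sequences, whose median is 6. Those in rpoC2 (Pt:17917-17946), rpoB (Pt:25674-25703) and rpoC1 (Pt:22484-22513, inside its intron) are 13, 10 and 9 bases long, all on the minus strand. By contrast the run in psbA (Pt:1355-1384, minus strand) is 4 bases, that in rbcL (Pt:55492-55521, plus strand) 5 and that in rpl2 (Pt:84421-84450, minus strand) 7. A run of 9 or more was present in 17 of the 81 sequences and one of 13 or more in 5, rpoA, rpoC2, accD, clpP and ycf1.

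Of the short rRNAs, rrn5S is printed because its change differed between the mutants. It lies on the plus strand at Pt:107949-108069, with a second copy in the other arm of the inverted repeat.
rrn5S: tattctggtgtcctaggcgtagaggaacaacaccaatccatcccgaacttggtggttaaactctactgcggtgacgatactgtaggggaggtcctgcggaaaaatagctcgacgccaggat

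Gene counts per library totalled between 9402839 and 52218346 reads, the lowest in WT Col replicate 1. In the Col pair a second principal component (20.8% of the variance of log CPM) set WT Col 1 and lsm4 2 apart from the other libraries. In the C24 pair the second component (27.3%) set WT C24 2 and lsm5 3 apart, and by correlation WT C24 2 was closest to an lsm5 library and lsm5 3 to a WT C24 library, so the gene calls and the chloroplast shares, but not the intron tests, were also computed without these 4 libraries. The mutated LSM4 gene (AT5G27720) had 412, 238 and 405 CPM (counts scaled to library size) in lsm4, against 42.9, 52.0 and 76.3 CPM in WT Col. That is a rise of 2.62 on the log2 scale (adjusted p = 0.000689, edgeR quasi-likelihood test), and the labels do not describe the allele. LSM5 (AT5G48870) had 10.1, 11.1 and 16.7 CPM in lsm5, against 19.9, 12.2 and 15.2 CPM in WT C24, with an adjusted p of 0.592. The harvested tissue is labelled whole plants. Of 9 root markers in the C24 pair, RHD6 and EXPA7 of root hair cells were at 0 in every library, PLT1 in 5 of 6, and CASP1, IRT1, WER and COBL9 reached at most 0.698 CPM. SCR and SHR, the other 2, had 31.8 to 43.5 CPM and 23.1 to 46.8 CPM there, against 33.3 to 47.2 CPM and 27.2 to 72.9 CPM in the Col pair. In the Col pair CASP1 of the endodermis had 4.2 to 22.5 CPM.

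Ribosomal RNA made up most of the chloroplast reads. In lsm4 the 133 genes held 2.67%, 0.539% and 0.874% of all gene counts, against 0.616%, 4.57% and 1.3% in WT Col. These groups overlapped, and the log2 ratio of the means was -0.67 (two-sided exact permutation test, p = 0.6). In lsm5 the share was 0.234%, 0.781% and 0.140%, against 2.88%, 1.03% and 2.23% in WT C24. Here every lsm5 library lay below every WT C24 library, and the log2 ratio was -2.41 (two-sided exact permutation test, p = 0.1, the smallest p that 3 against 3 allows). Within chloroplast reads, rRNA took between 96.3% and 99.3% in each of the 12 libraries, while protein-coding genes held 0.0173%, 0.00773% and 0.00874% of all gene counts in lsm4, against 0.00859%, 0.0307% and 0.0122% in WT Col. The protein-coding share was 0.00338%, 0.00658% and 0.00409% in lsm5, against 0.0180%, 0.00759% and 0.0136% in WT C24. The 2 copies of each duplicated gene both received the reads: 183 of 216 pairs of copy values were equal and all were within 5% or 5 reads of each other, so shares hold such reads under both copies, and genes below are given for 1 copy. A stretch with 98% or more identity in the nuclear genome was found for 24 of the 133 members, but only 7, all tRNA genes, were covered over 90%. How reads with several matches were counted is not given in the sources used here, and with a kit that does not mark strand, reads from a gene and from its antisense strand cannot be told apart.

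**Figure D1:**
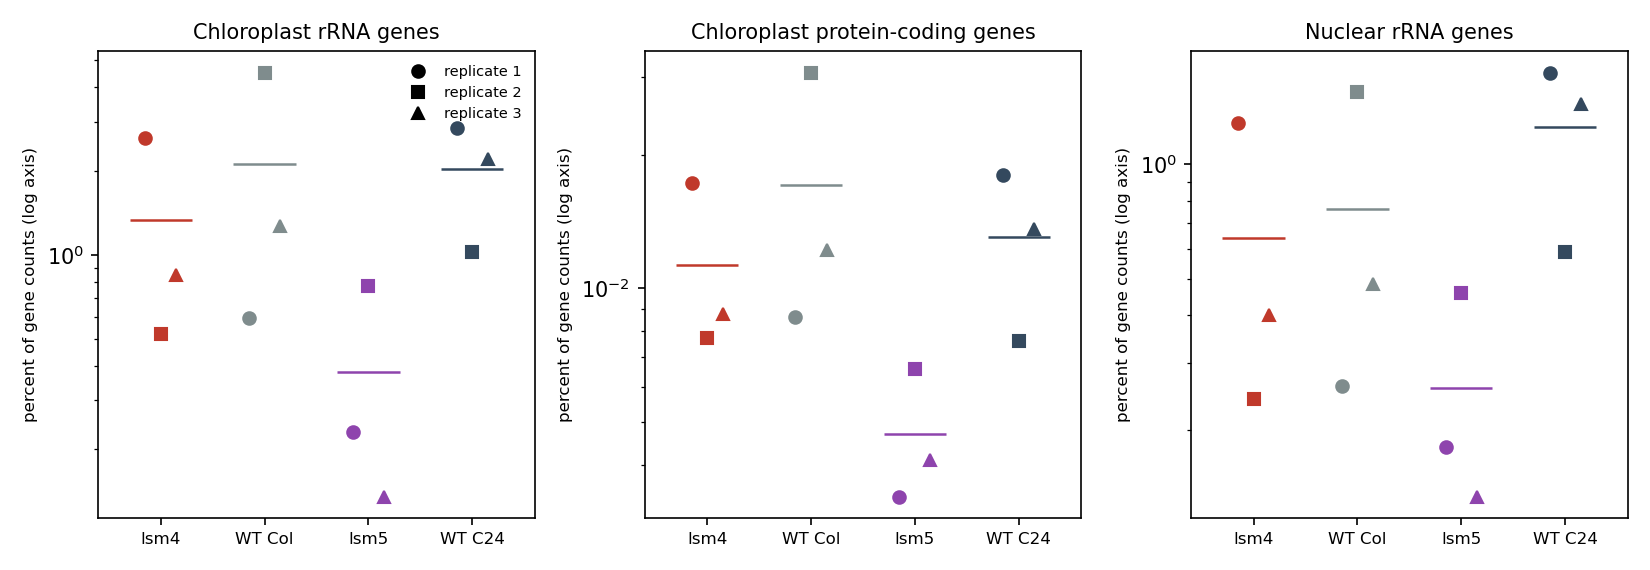
Percent of gene counts in each library (log axes) from chloroplast rRNA genes, chloroplast protein-coding genes and 4 nuclear rRNA genes, with replicates 1 to 3 as circles, squares and triangles and the group mean as a line. All 3 panels place lsm5 libraries below WT C24 libraries and show the same order of libraries within each group for both kinds of rRNA.

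Nuclear-encoded cytosolic rRNA, which is likewise not made with a poly(A) tail, moved with these shares. Its 4 genes held 1.28%, 0.241% and 0.401% of gene counts in lsm4, against 0.261%, 1.55% and 0.483% in WT Col. In lsm5 they held 0.180%, 0.458% and 0.133%, against 1.74%, 0.588% and 1.44% in WT C24. Libraries ranked in the same order by chloroplast and by nuclear rRNA within each of the 4 groups. Per 100 nuclear rRNA reads, chloroplast rRNA reads averaged 211 ± 5.63 in lsm4 and 261 ± 32.1 in WT Col, with no overlap between the groups (SD, n = 3 each, two-sided exact permutation test, p = 0.1, log2 ratio -0.31). The same ratio averaged 133 ± 33.9 in lsm5 and 164 ± 9.79 in WT C24, and these groups overlapped (SD, n = 3 each, two-sided exact permutation test, p = 0.3, log2 ratio -0.31). Mitochondria-encoded genes held 0.0909%, 0.0343% and 0.0486% of gene counts in lsm4, against 0.0221%, 0.0904% and 0.0470% in WT Col. In lsm5 they held 0.0105%, 0.0253% and 0.00882%, against 0.0498%, 0.0249% and 0.0385% in WT C24. How far the carry-over of RNA without a stable tail set the chloroplast values was not tested.

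In lsm4 plants 3 of the 4 plastid RNA polymerase genes passed the test: rpoA, rpoC2 and rpoB were 4.46-fold, 3.62-fold and 2.55-fold lower than in WT Col. The fourth, rpoC1, was fitted at 2.01-fold lower and missed the threshold. No other chloroplast gene passed in either direction. A filter on low counts kept 69 identifiers, or 57 distinct sequences, and the remaining 58 distinct sequences had at most 50 reads in any library of the pair and were not tested. Of the 57, 3 were lower and 0 higher at an adjusted p under 0.05, where 10.7% of the 20793 genes tested were lower and 10.7% higher, 21.4% in all, so the share of members called lower was below the background. At an unadjusted p under 0.05, 11 of the 57 were lower and 0 higher, against 17.3% lower and 17.4% higher among all genes, so the lower count is near its background and the higher count below it. Fitted changes were below 0 for 53 of the 57, with a median of -0.73 on the log2 scale, against 0.02 over all genes tested. The CPM ranges of the groups did not overlap for 9, all lower in lsm4, against 19.1% of all genes.

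The RNA polymerase genes were captured in every library of the pair. rpoA, which encodes the alpha subunit, had 0.290, 0.243 and 0.288 CPM in lsm4, against 0.598, 1.80 and 1.11 CPM in WT Col. These come from 10, 9 and 10 reads, against 6, 84 and 26 reads, and every lsm4 library lay below every WT Col library (log2 change -2.16, SE 0.50, adjusted p = 0.0159). rpoC2, for the β″ subunit, had 1.01, 0.593 and 0.432 CPM in lsm4, against 1.69, 3.52 and 2.01 CPM in WT Col. The groups were again apart (log2 change -1.86, SE 0.46, adjusted p = 0.0198). For rpoB, the β subunit gene at the head of the rpoB-rpoC1-rpoC2 operon, the values were 3.50, 3.42 and 1.53 CPM in lsm4, against 8.17, 7.92 and 5.51 CPM in WT Col. No lsm4 library reached a WT Col library (log2 change -1.35, SE 0.36, adjusted p = 0.0273). rpoC1, for the β′ subunit, had 0.956, 1.19 and 0.980 CPM in lsm4, against 1.69, 2.92 and 1.54 CPM in WT Col, also without overlap but with an adjusted p of 0.0895. Together the 4 genes summed to 5.76, 5.44 and 3.23 CPM in lsm4, against 12.2, 16.2 and 10.2 CPM in WT Col (two-sided exact permutation test, p = 0.1, the smallest possible). All 3 calls were lost without WT Col replicate 2 (adjusted p = 0.0952 for rpoA, 0.104 for rpoC2 and 0.0956 for rpoB) and without lsm4 replicate 3 (adjusted p = 0.0538, 0.0648 and 0.0583), rpoB also without WT Col 1 and rpoA without lsm4 1. They were lost as well when libraries were scaled to chloroplast protein-coding reads, with log2 changes of -1.27, -1.19 and -0.86. The median was then -0.007 over the 57 chloroplast sequences and 0.57 over all genes. That fit scales nuclear genes by the same few chloroplast reads, so the lost calls do not show whether the rpo genes fell more than other chloroplast genes. Without WT Col 1 and lsm4 2, a choice made after seeing the data, the 3 calls stood and 4 further genes were lower: petD, psaB, rpl16 and ycf1.

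**Figure D2:**
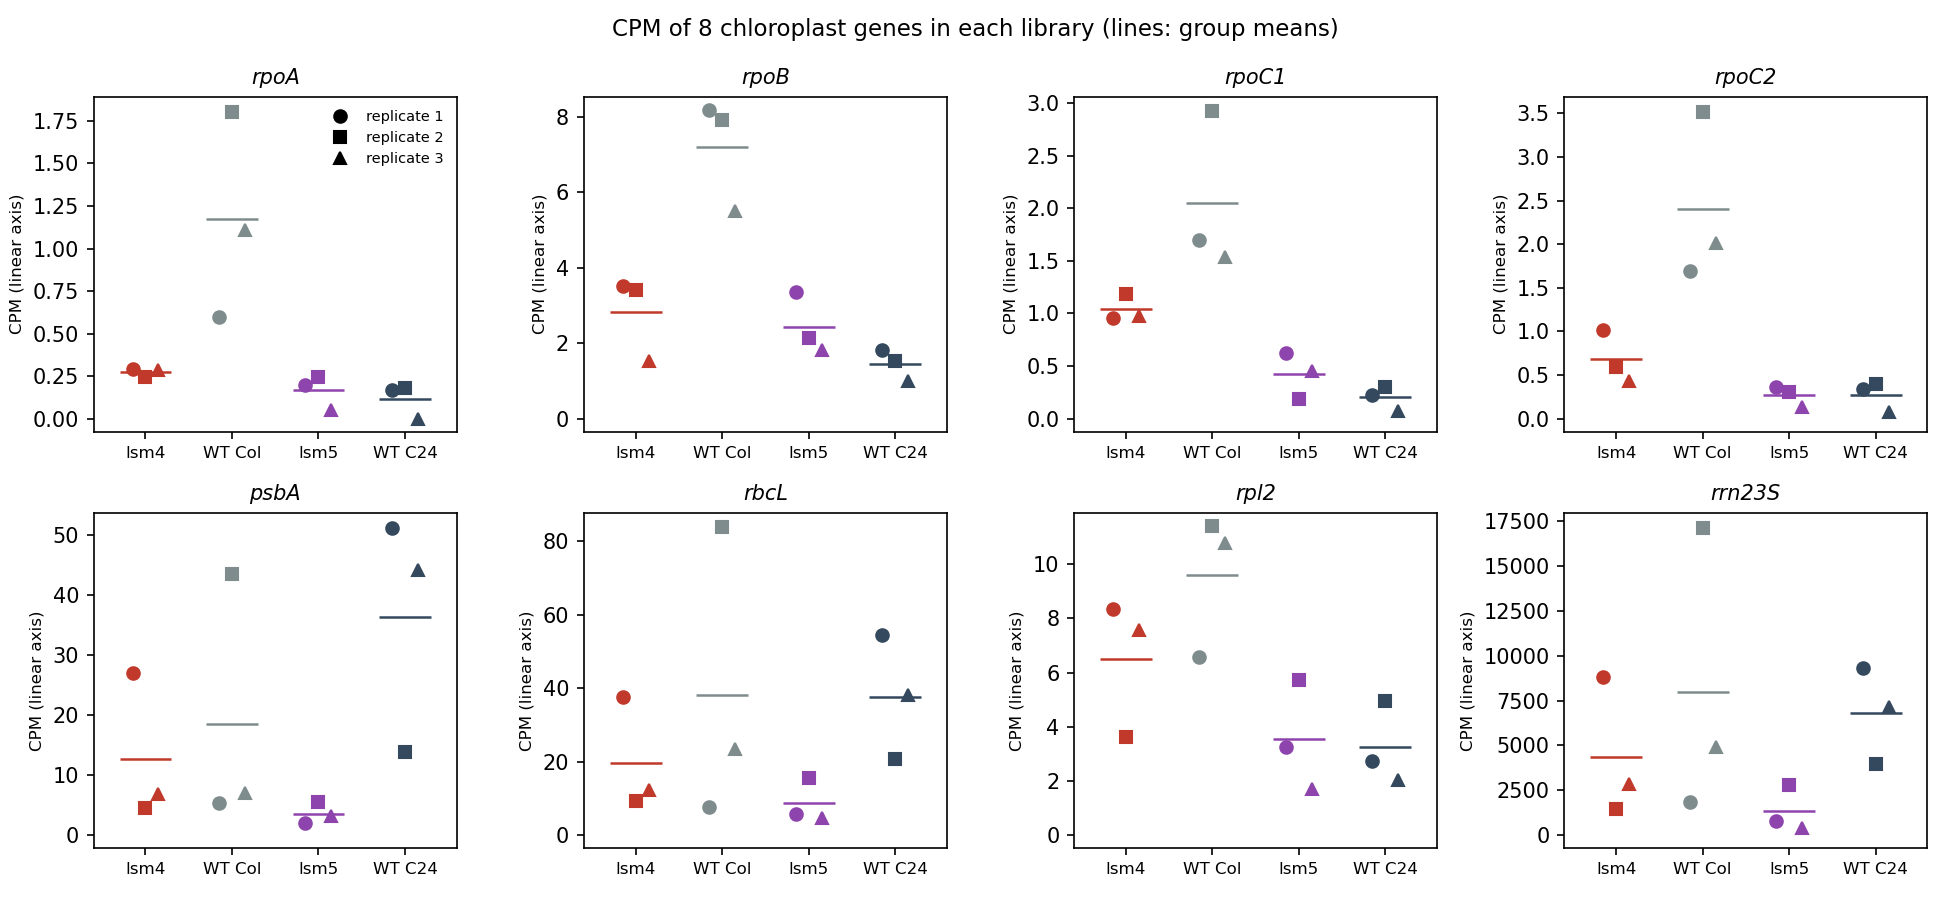
CPM (linear axes) of the 4 plastid RNA polymerase genes and of psbA, rbcL, rpl2 and rrn23S in each library, with replicates 1 to 3 as circles, squares and triangles and the group mean as a line. The rpo genes lie lower in lsm4 than in WT Col, and psbA lies at 2.04 to 5.44 CPM in lsm5, against 13.8 to 51.3 CPM in WT C24.

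No photosynthesis gene was called in the Col pair in the fit without a block. In photosystem II 8 of 9 tested genes had a fitted change below 0 in lsm4, from -1.53 to 0.30. psbA, for the D1 reaction centre protein, had 26.9, 4.53 and 6.77 CPM in lsm4, against 5.38, 43.4 and 6.92 CPM in WT Col (log2 change -0.57, adjusted p = 0.673). The groups overlapped, and the highest library of each, lsm4 1 and WT Col 2, was also the one with most chloroplast and nuclear rRNA. psbB, psbC and psbD, for the CP47 and CP43 antenna proteins and the D2 protein, were fitted at -0.50, -0.72 and -0.74, with adjusted p values from 0.422 to 0.63. In photosystem I the reaction centre genes psaA and psaB were fitted at -1.3 and -1.42, with adjusted p values of 0.283 and 0.141. For rbcL, the large subunit of Rubisco, the values were 37.5, 9.35 and 12.2 CPM in lsm4, against 7.58, 83.8 and 23.3 CPM in WT Col (log2 change -0.97, adjusted p = 0.41). petA, petB and petD of the cytochrome b6f complex were fitted between -1.47 and -0.84, 5 ATP synthase genes between -0.71 and -0.30, with atpA at -0.71 and atpB at -0.30, and 5 genes of the NDH complex between -1.64 and -0.44. ndhA was fitted at -1.64 (adjusted p = 0.13), ndhF at -1.49 (adjusted p = 0.295) and ndhB at -0.44 (adjusted p = 0.645).

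The 11 ribosomal protein genes tested in lsm4 were all fitted below 0, from -1.62 to -0.23, and none passed. The nearest was rpl16 of the large subunit, with 0.377, 0.943 and 0.547 CPM in lsm4, against 1.3, 1.87 and 1.62 CPM in WT Col (log2 change -1.37, adjusted p = 0.0554), and its groups did not overlap. rpl2, also of the large subunit, had 8.34, 3.64 and 7.58 CPM in lsm4, against 6.58, 11.4 and 10.8 CPM in WT Col, with overlap (log2 change -0.57, adjusted p = 0.283). Among remaining genes, the 5361-base ycf1 (ATCG01130), which encodes a protein of the inner envelope import machinery, had 3.16, 3.69 and 2.91 CPM in lsm4, against 2.89, 6.78 and 8.46 CPM in WT Col (log2 change -0.92, adjusted p = 0.113). ycf2, encoding part of an ATPase complex of the inner envelope, was fitted at 0.16, clpP, the plastid-encoded protease subunit, at -0.16, and matK, the intron maturase, at -0.48. psaC of photosystem I, rps4 and accD, the acetyl-CoA carboxylase subunit, had at most 20 reads in any library and were not tested in either pair. The rRNAs rrn16S, rrn23S and rrn4.5S were fitted from -0.86 to -0.63 in lsm4 and rrn5S at 0.54, and their groups overlapped.

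**Figure D3:**
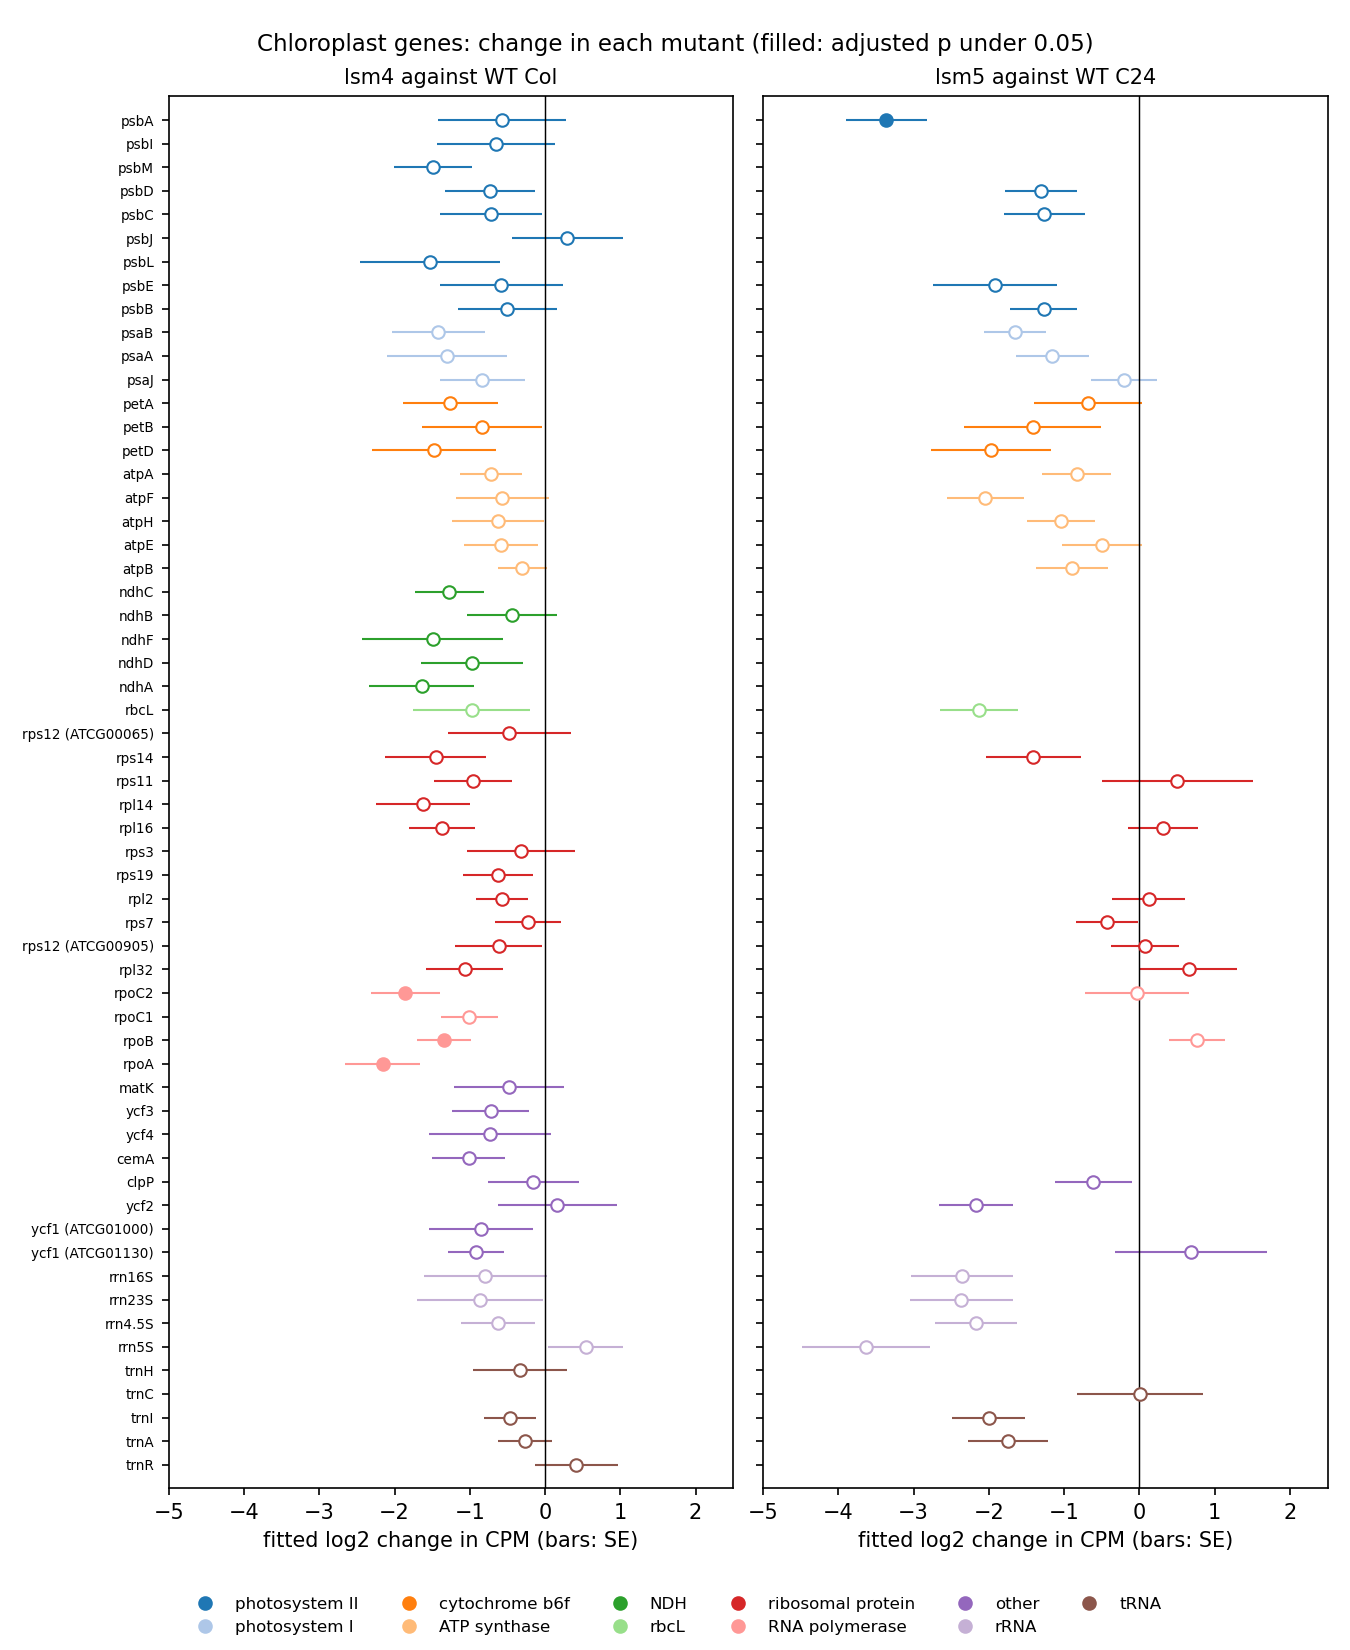
Fitted log2 change in CPM with its SE for each distinct chloroplast sequence that passed the low-count filter, in lsm4 against WT Col (57 genes) and lsm5 against WT C24 (36 genes), coloured by class, with filled points for adjusted p under 0.05. Filled points are rpoA, rpoB and rpoC2 in lsm4 and psbA in lsm5, and in lsm5 the 4 rRNA genes lie between -3.63 and -2.17 while ribosomal protein genes spread from -1.41 to 0.66.

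In lsm5 plants the only chloroplast gene called in the edgeR fit without a block was psbA, fitted at 10.3-fold lower than in WT C24. The reads of rRNA and most photosynthesis genes lay in the same direction without passing in that fit. The filter kept 46 identifiers, or 36 distinct sequences, and the others had at most 19 reads in any library. At an adjusted p under 0.05, 1 of the 36 was lower and 0 were higher, where 0.938% of the 19819 genes tested were lower and 1.51% higher, 2.45% in all. At an unadjusted p under 0.05, 18 of 36 were lower and 0 higher, against 8.07% lower and 9.76% higher among all genes. Fitted changes were below 0 for 28 of the 36, with a median of -1.21, against 0.01 over all genes tested. The groups did not overlap for 15 genes that lay lower in lsm5 and for 1, rpoB, that lay higher, against 10.4% and 13% of all genes. The same lsm5 libraries held less nuclear rRNA, at most 0.458% of gene counts against at least 0.588% in WT C24, and its part in these values was not tested.

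psbA had 2.04, 5.44 and 3.12 CPM in lsm5, against 51.3, 13.8 and 44.2 CPM in WT C24. The highest lsm5 library lay below the lowest WT C24 library (log2 change -3.36, SE 0.53, adjusted p = 0.0212). The call was lost in edgeR without WT C24 1, WT C24 3, lsm5 1 or lsm5 2 (adjusted p = 0.0829, 0.107, 0.0763 and 0.0503), at log2 changes from -3.81 to -3.04. When libraries were scaled to chloroplast protein-coding reads psbA was still called at -1.79, while the median moved to 0.24 over the 36 chloroplast sequences and to 1.54 over all genes. That fit scales nuclear genes by the same few chloroplast reads, and psbA is itself among those reads. The call there does not show whether psbA fell more than other chloroplast genes. Other photosystem II genes fell short of the threshold: psbB, psbC and psbD were fitted at -1.27, -1.26 and -1.3, with adjusted p values from 0.178 to 0.265. Photosystem II transcripts, psbA included, summed to 5.27, 18 and 8.52 CPM in lsm5, against 74.0, 27.1 and 62.1 CPM in WT C24, with no overlap (two-sided exact permutation test, p = 0.1, the smallest possible). psbA itself gave 51.3, 13.8 and 44.2 CPM of the WT C24 sums, so these sums are not independent of the psbA change.

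rbcL had 5.60, 15.6 and 4.54 CPM in lsm5, against 54.3, 20.7 and 38.0 CPM in WT C24 (log2 change -2.13, SE 0.51, adjusted p = 0.0709). The groups were apart, and lsm5 2 and WT C24 2 lay nearest each other, as they did for psbA. In photosystem I psaB was fitted at -1.65 (adjusted p = 0.0793) and psaA at -1.16 (adjusted p = 0.259). The ATP synthase gene atpF had 0.165, 0.371 and 0.161 CPM in lsm5, against 1.31, 0.789 and 0.845 CPM in WT C24 (log2 change -2.04, adjusted p = 0.0815). atpA and atpB were fitted at -0.83 and -0.89, with adjusted p values of 0.391 and 0.374. petA, petB and petD were fitted at -0.68, -1.42 and -1.97, with adjusted p values from 0.243 to 0.677. None of the NDH genes had enough reads for a test, and ndhA, ndhB and ndhF had at most 12 reads in any library.

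Ribosomal RNA lay lowest as a class in lsm5. rrn23S had 803, 2799 and 370.4 CPM in lsm5, against 9329.8, 3952 and 7158 CPM in WT C24 (log2 change -2.36, adjusted p = 0.121), and rrn16S, fitted at -2.36, differed alike. rrn4.5S was fitted at -2.17 (adjusted p = 0.0796). rrn5S had 0.0330, 0.711 and 0.0537 CPM in lsm5, against 4.61, 2.03 and 3.34 CPM in WT C24 (log2 change -3.63, SE 0.85, adjusted p = 0.0681), from 1, 23 and 2 reads in lsm5. The tRNA genes trnI and trnA of the rRNA operon, which carry introns, were fitted at -2.0 and -1.74 (adjusted p = 0.0721 and 0.136). For all 6 genes the groups did not overlap. ycf2 had 0.132, 0.155 and 0.134 CPM in lsm5, against 0.797, 0.546 and 0.615 CPM in WT C24 (log2 change -2.17, adjusted p = 0.061), and clpP was fitted at -0.61.

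Ribosomal protein and RNA polymerase genes were fitted on both sides of 0 in lsm5, and the difference between classes was not tested. Of 7 ribosomal protein genes tested, 5 were fitted above 0 and 2 below, with a median of 0.12. The lowest was rps14 of the small subunit, with 0.198, 0.0618 and 0.296 CPM in lsm5, against 0.342, 0.425 and 0.730 CPM in WT C24, without overlap (log2 change -1.41, adjusted p = 0.293). rpl2 had 3.26, 5.72 and 1.69 CPM in lsm5, against 2.73, 4.95 and 2.04 CPM in WT C24, and the groups overlapped (log2 change 0.12, adjusted p = 0.923). rpoB had 3.36, 2.13 and 1.83 CPM in lsm5, against 1.82, 1.52 and 0.999 CPM in WT C24, with every lsm5 library above every WT C24 library (log2 change 0.76, SE 0.37, adjusted p = 0.333). rpoC2 was fitted at -0.03, and rpoA and rpoC1, with at most 19 reads in any library, were not tested. matK likewise had too few reads, and ycf1 (ATCG01130) was fitted at 0.69 with an adjusted p of 0.769. Which genes pass in lsm5 depended on the treatment of the libraries: without WT C24 2 and lsm5 3, a choice made after seeing the data, 17 were lower and 3 higher.

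The change in lsm5 minus the change in lsm4 was tested across the 4 groups for 62 distinct chloroplast sequences, of which 2 passed, where 10.5% of 21588 genes did. At an unadjusted p under 0.05, 11 of the 62 differed, against 25.1% of all genes. rpoB differed by 2.09 on the log2 scale (SE 0.53, adjusted p = 0.0239), from a fitted change of 0.76 in lsm5 and one of -1.35 in lsm4. rrn5S differed by -4.20 (SE 1.06, adjusted p = 0.0236), from -3.63 in lsm5 and 0.54 in lsm4. For psbA the difference was -2.82 (adjusted p = 0.149), for rpoC2 1.79 (adjusted p = 0.201) and for rpoA 2.59 (adjusted p = 0.154). Accession, medium and age go with the pair, so they cannot be told apart from the mutated gene. The rpoB call was lost without WT Col 2, WT C24 3 or lsm5 1, and the rrn5S call without WT Col 3, lsm4 1, WT C24 1, WT C24 3 or lsm5 1. Scaling to chloroplast protein-coding reads ended both calls, at differences of 3.18 for rpoB (adjusted p = 0.116) and -3.82 for rrn5S (adjusted p = 0.0735). The median was then 0.55 over the 62 chloroplast sequences and 0.99 over all genes. Without the 4 libraries that stand apart, 11 sequences were called, with psbA at -3.10 (adjusted p = 0.0385) and rpoA at 3.89 (adjusted p = 0.0326) among them. Across the 29 protein-coding genes in both fits, the changes in the 2 mutants had a Pearson r of -0.23 and a Spearman rho of -0.18, a description over genes that share libraries.

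Grouping by polymerase put these members side by side. Each of the 7 NEP genes holds a run of A of 9 or more bases, and among PEP genes only petD does, in its intron. Polymerase class therefore cannot be told apart from the run of A in RNA selected on poly(A). The 27 PEP genes, the psa, psb and pet genes and rbcL, summed to 113, 28.4 and 43.6 CPM in lsm4, against 29.5, 235 and 66.4 CPM in WT Col. The 7 NEP genes summed to 11.6, 9.68 and 7.35 CPM in lsm4, against 15.0, 24.9 and 18.4 CPM in WT Col, with no overlap (two-sided exact permutation test, p = 0.1). That sum holds rpoB, rpoC1 and rpoC2, whose lower values are given above, so it is not a separate result. Of its other members in lsm4, ycf2 was fitted at 0.16, ycf1 (ATCG01000) at -0.85 and ycf1 (ATCG01130) at -0.92. None of these was called, and accD was not tested. Per NEP read there were 9.73, 2.93 and 5.93 PEP reads in lsm4, against 1.97, 9.43 and 3.61 in WT Col, and these overlapped. In lsm5 the PEP genes summed to 13.3, 40.8 and 18 CPM, against 145, 56.1 and 111 CPM in WT C24. NEP genes summed to 5.11, 3.52 and 3.01 CPM in lsm5, against 3.70, 3.67 and 1.92 CPM in WT C24. The ratio was 2.60, 11.6 and 5.99 PEP reads per NEP read in lsm5, against 39.1, 15.3 and 57.7 in WT C24, a log2 ratio of means of -2.47 with no overlap (two-sided exact permutation test, p = 0.1, the smallest possible). Much of the PEP sum in WT C24 came from psbA and rbcL, given above, and rbcL alone had 54.3, 20.7 and 38.0 CPM there. The ratio is therefore not independent of the changes in those genes. Of the PEP genes, 12 were tested in lsm5, and all 12 were fitted below 0 with 1 called. Within lsm4 and within WT Col the ratio ranked libraries in the order of their chloroplast rRNA share, but not within lsm5 or WT C24. The part of RNA capture in this ratio was not tested. Within chloroplast protein-coding reads, RNA polymerase genes took 14.9%, 4.52% and 7.90% in lsm5, against 1.51%, 3.04% and 0.889% in WT C24. Photosystem II genes, psbA among them, took 17.3%, 28.3% and 27.2% in lsm5, against 43.6%, 34.4% and 47.9% in WT C24. Over the 41 per-library measures tested this way, the smallest Benjamini-Hochberg adjusted p was 0.683 for lsm4 and 0.158 for lsm5. No share of this kind can pass with 3 libraries a group.

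**Figure D4:**
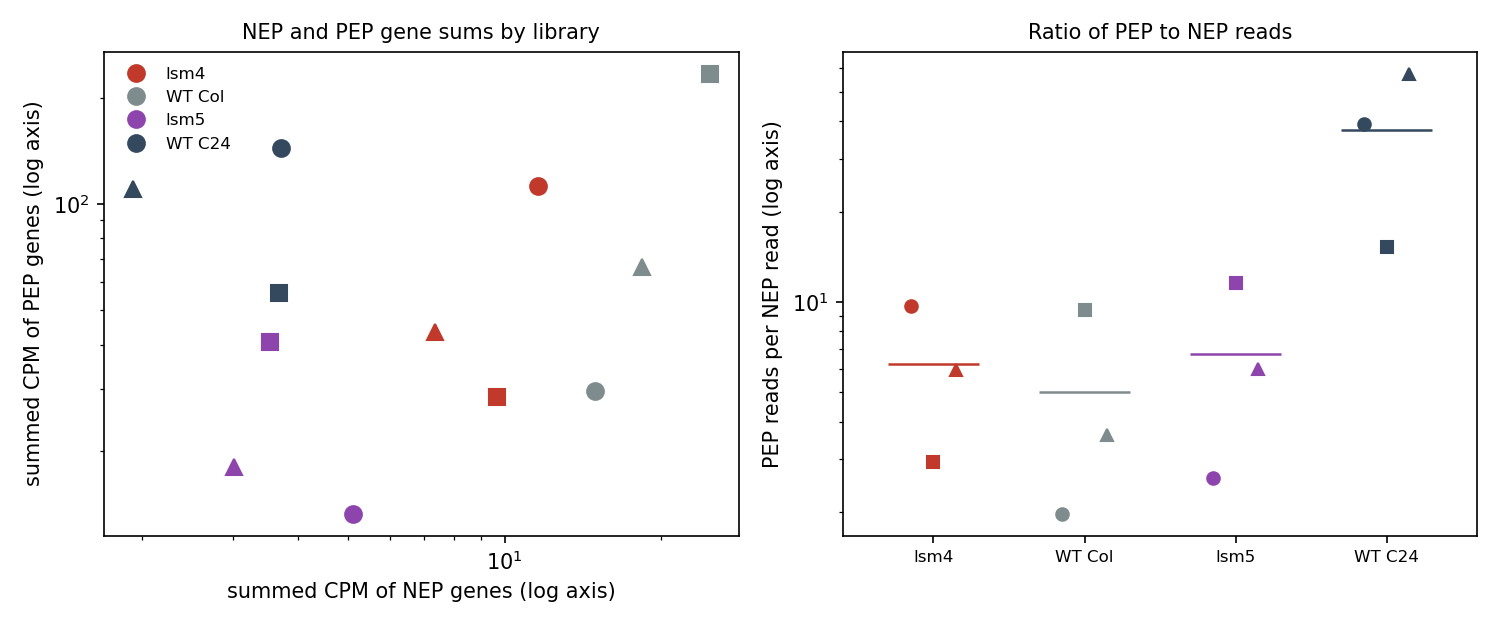
Left, summed CPM of the 27 PEP genes against summed CPM of the 7 NEP genes in each library (log axes), and right, PEP reads per NEP read in each library (log axis) with the group mean as a line, both with replicates 1 to 3 as circles, squares and triangles. The ratio spans 2.60 to 11.6 in lsm5, against 15.3 to 57.7 in WT C24, while lsm4 and WT Col overlap.

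By mean CPM per kilobase rrn23S and rrn16S led in all 4 groups, at 1558 and 1447 in lsm4, 2836 and 2507 in WT Col, 471 and 435 in lsm5 and 2425 and 2233 in WT C24. The third place went to trnI in lsm4 (520) and WT Col (716), and to rrn4.5S in lsm5 (18) and WT C24 (81.1), levels set across tables that were scaled apart. Of protein-coding genes rbcL led at 13.7 in lsm4, 26.5 in WT Col and 5.97 in lsm5, and psbA led at 34.3 in WT C24. atpH, the ring subunit of ATP synthase, was among the top 3 in every group, at 11.9 in lsm4, 17.6 in WT Col, 5.40 in lsm5 and 11.2 in WT C24. Genes with a longer run of A had lower levels per length: in the Col pair the median was 0.553 CPM per kilobase in lsm4 and 1.08 in WT Col for the 14 genes with a run of 9 or more, against 1.89 in lsm4 and 4.03 in WT Col for the 18 with a run of up to 5. The fitted change in lsm4 had a Spearman rho of -0.16 with the run over 49 protein-coding genes and that in lsm5 one of 0.37 over 29. Level per length also fell with exon width, with a Spearman rho of -0.42 in lsm4 and -0.39 in WT Col. Some runs, as in rpoC1 and petD, lie in introns, while levels are per base of exon. Base composition varies with the run, and these are descriptions over genes of 1 chromosome.

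Chloroplast introns are of group II, with trnL the group I exception, and are removed with the help of nuclear-encoded factors and matK rather than by the spliceosome, which cuts nuclear introns. The table of intron counts held 24 chloroplast introns, 19 of them distinct. First and last 20 bases are shown for some of them, in TAIR10 and in the direction of the gene, because the ends differ from the GT to AG ends of spliceosomal introns. Capitals mark a start of GTGCG or GTGTG and an end of AC or AT.
rpl16 start (Pt:81588-82643, minus strand): GTGTGactcgttggtttagg
rpl16 end: ttagaaccatcaactataAC
ndhA start (Pt:120377-121456, minus strand): GTGCGattcgttgaaacaga
ndhA end: atgttctcgccgactaggAT
petB start (Pt:74847-75650, plus strand): GTGTGacttgttagaattga
petB end: cttggtttacctatctcaAT
trnI start (Pt:102838-103566, plus strand): ttgcgtcgttgtgcctgggc
trnI end: ggtgcgatgatttacttcAC
Of the 19 chloroplast introns 13 start with GTGCG or GTGTG, 14 end in AC or AT and 0 run from GT to AG. Of 117745 nuclear introns 98.7% run from GT to AG, 1.34% start with either motif and 0.0832% end in AC or AT, counted on the gene's strand.

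By the median over introns, intron reads were common relative to exon reads in all groups. Reads per base of intron as a percent of reads per base of exon, summed over libraries, had a median of 30.7% in lsm4 and 33.9% in WT Col over 13 and 14 distinct chloroplast introns with 30 or more host gene reads. Medians were 18.5% in lsm5 and 24.7% in WT C24, over 8 and 10 introns. One of those 8, the rpoC1 intron, had 0 reads in lsm5 beside 42 reads of its host gene. The introns behind these medians differ between groups. Those of trnI and trnA, counted in each group, belong to genes with only 72 and 73 bases of exon, and the lsm4 median is the value of trnI. Nuclear introns had medians of 4.98% in lsm4, 1.85% in WT Col, 2.62% in lsm5 and 1.26% in WT C24. For rpl16 the density was 58.8% in lsm4 and 49.0% in WT Col, and 16.7% in lsm5 and 20.7% in WT C24. rpl2 had 16.6% in lsm4 and 13.9% in WT Col, and 20.2% in lsm5 and 17.4% in WT C24. The density of petB was 41.6% in lsm4 and 34.9% in WT Col, that of petD 22.0% and 7.39%, that of atpF 28.0% and 20.5%, that of rpoC1 37.2% and 27.3%, and that of ycf3 25.6% and 41.3%. ndhB had 72.1% in lsm4 and 50.5% in WT Col, the first clpP intron 49.2% and 91.1%, and the second 17.3% in both. These sums rest on few reads: for ndhB, lsm4 1 gave 19 of 27 intron reads and the libraries had 141%, 11.8% and 85.4% in lsm4, against 0%, 49.7% and 142% in WT Col. For petD, lsm4 1 gave 7 of 10 intron reads, and the other two lsm4 libraries had 8.52% and 13.6%. ndhA, with only 25 exon reads in lsm4 and 75 in WT Col, had 140% and 88.2%. The library-by-library densities of trnA were 36.0%, 36.8% and 35.0% in lsm4, against 35.6%, 40.3% and 40.1% in WT Col.

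**Figure D5:**
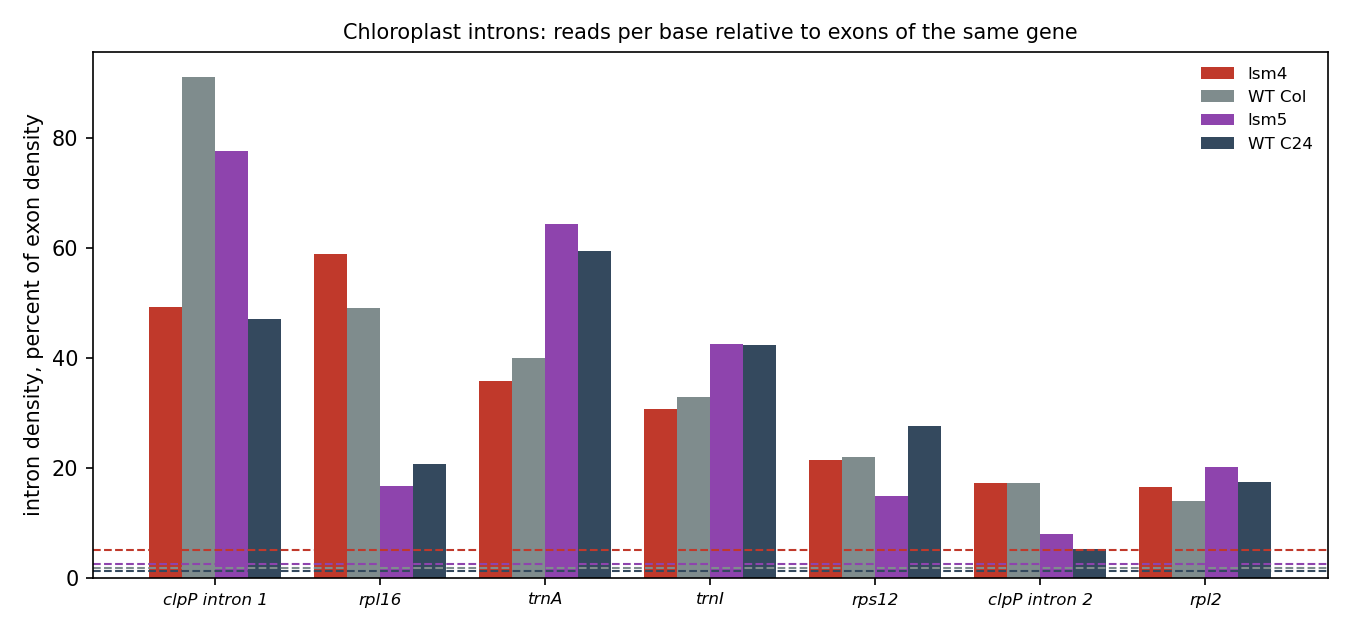
Reads per intron base as a percent of reads per exon base of the same gene, summed over the 3 replicates of a group (bars, from 0), for 7 distinct chloroplast introns whose genes had 30 or more reads in every group; dashed lines are the medians of nuclear introns. Bars of the 4 groups lie above the nuclear median of their own group for each of the 7 introns.

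Only 4 distinct chloroplast introns, those of rpl16, rpl2, trnI and trnA, had reads enough for a test of intron reads relative to their gene. With edgeR, 0 of the 4 passed in lsm4, against 18.1% of the 11439 introns tested, and 0 had an unadjusted p under 0.05, against 33.3%. In lsm5 0 of the 4 passed, against 0.531% of 7151, and 0 had an unadjusted p under 0.05, against 12.2%. The fitted changes in lsm4 were 0.41 for rpl16 (SE 0.41, adjusted p = 0.524), 0.32 for rpl2, 0.01 for trnI and -0.11 for trnA. In lsm5 they were -0.31 for rpl16, 0.15 for rpl2, -0.04 for trnI and 0.13 for trnA. The median over all introns tested was 0.65 in lsm4 and 0.24 in lsm5. Without the host gene as offset the rpl16 intron was called lower in lsm4.

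The authors' deposited tables list the same direction for the genes they hold. Their gene table for lsm4 names 12 chloroplast genes as lower and 0 as higher, where it holds 9.89% of all genes as lower and 9.68% as higher, up to a false discovery rate near 0.104. In the authors' deposited table rpoA stands at a log2 ratio of -2.16, rpoC2 at -1.85, rpoB at -1.35 and rpoC1 at -1.01, with false discovery rates of 0.000916, 0.00135, 0.00282 and 0.0747. For lsm5 the authors' deposited table names 21 chloroplast identifiers as lower and 0 as higher, against 2.37% and 3.12% of all genes. It puts rrn5S at -3.63, psbA at -3.37, rrn23S at -2.37 and rbcL at -2.14, with false discovery rates of 0.000189, 8.7e-10, 0.0011 and 0.000184. The authors' deposited intron table for lsm4 holds the introns of trnI and trnA, both copies each, as lower, with false discovery rates from 0.0957 to 0.131, where it lists 0.987% of introns as lower, and 0 chloroplast introns as higher, against 2.51%. For lsm5 it lists 0 chloroplast introns as higher and 0 as lower, against 0.345% and 0.0928% of introns. In lsm4 the authors' log2 values were -1.27 for the trnI intron and -1.16 for the trnA intron. Relative to their host genes, the same introns were fitted above at 0.01 and -0.11, so the 2 results differ. The authors' values are labelled per bin, and that label does not mention the host gene. All of these values come from the same reads as the counts above.

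Nuclear genes for the chloroplast's own expression machinery were lower in lsm4 more often than higher. Of 20 genes for plastid transcription, 9 were lower and 1 higher, with a median log2 change of -0.51, against 10.7% lower, 10.7% higher and a median of 0.02 over all genes tested, the background for each list here. The PEP-associated proteins PTAC3, PTAC12, PTAC14 and TRXZ were among them: TRXZ, a plastid thioredoxin, had 17.8, 13.3 and 17.4 CPM in lsm4, against 43.2, 43.6 and 42.7 CPM in WT Col (log2 change -1.41, adjusted p = 0.00115). RPOTmp (AT5G15700), a phage-type polymerase, was the higher one, at 0.91 (adjusted p = 0.0194). Among the sigma factors, which guide PEP to promoters, SIG4 was lower (log2 change -0.87, adjusted p = 0.0173) and the other 5 did not pass. Another phage-type polymerase, RPOTp, was fitted at -0.28 (adjusted p = 0.481). Of 27 genes for plastid RNA processing and decay, 14 were lower and 0 higher, with a median of -0.61. PNP, the polynucleotide phosphorylase of plastids, had 36.6, 43.7 and 35.9 CPM in lsm4, against 71.2, 68.1 and 60.4 CPM in WT Col (log2 change -0.78, adjusted p = 0.0129). RNJ, the plastid RNase J, was lower by a log2 change of -1.12 (adjusted p = 0.00909), and the ribonucleoprotein CP31A by one of -1.21 (adjusted p = 0.0134). RNR1, an exoribonuclease, and RNE, the plastid RNase E, were fitted at 0.02 and -0.32. Of 12 nuclear subunits of the photosynthetic complexes 3 were lower: RBCS3B, PSAD1 and ATPD.

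In lsm5 none of these nuclear genes passed with edgeR, at 0 of 20, 0 of 27 and 0 of 12, with medians of 0.22, 0.06 and -0.15. PNP was fitted at 0.20, RNJ at 0.03, and RBCS1A, the Rubisco small subunit gene, at -0.02. Chloroplast rbcL was fitted at -2.13 and did not pass. Its RNA has no stable poly(A) tail, so the levels of RBCS1A and rbcL are not captured alike. Green tissue markers LHCB1.3, RCA and RBCS1A summed to 42191, 23964 and 41429 CPM in lsm4, against 56553, 74122 and 72017 CPM in WT Col, with no overlap. Of the 3, 1 was called lower in lsm4 and 0 higher: LHCB1.3 (log2 change -1.84, adjusted p = 0.0104, edgeR). RCA was fitted at -0.11 and RBCS1A at -0.59 there, and neither passed. The 3 markers summed to 68572, 67752 and 39123 CPM in lsm5, against 51596, 84154 and 54107 CPM in WT C24, with 0 called. Root markers, 5 of 8 tested lower and 0 higher in lsm4, summed to 168, 155 and 181 CPM there, against 205, 305 and 247 CPM in WT Col. Senescence markers had 2 of 3 tested higher in lsm4, SAG13 and SGR1, and summed to 56.1, 42.2 and 52.2 CPM in lsm4 libraries, against 14.8, 17.5 and 22.2 CPM in WT Col. In lsm5 they summed to 534, 553 and 514 CPM, against 388, 464 and 421 CPM in WT C24, with 0 of 4 called and no overlap, and root markers to 83.0, 81.0 and 55.9 CPM, against 62.2, 83.1 and 61.5 CPM. SAG12, a defining marker of late senescence, reached at most 0.0579 CPM in lsm4 and was at 0 in WT Col 1 and WT Col 3. The part of these shifts in tissue and age in the chloroplast values was not tested. Of mitochondria-encoded genes, 0 of 36 were called in lsm4 with a median of 0.14, against 21.4% of all genes. In lsm5 4 of 20 were lower and 0 higher, with a median of -1.48, against 0.938% and 1.51% of all genes.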

How the data were processed

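RNA from whole plants was poly(A)-purified with the TruSeq RNA kit, per the labels' protocols, and sequenced from 3 replicates in each of 4 groups. The authors deposited raw counts per gene and per intron, with 2 libraries of a replicate joined in 1 column, and tables of log2 ratios and of p-values adjusted as false discovery rates. The build TAIR10 and the tools edgeR 3.4.2, TopHat2 2.0.9 and R 3.0.2 were used, per the submitters' processing notes, and the counting tool is not given in the sources used here. Another 12 per-sample columns were not used, and 1 intron row with a blank name was left out.

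Gene counts, 9402839 to 52218346 per replicate, were tested over all genes within each pair with edgeR 4.0.16 (TMM, filterByExpr, quasi-likelihood test, Benjamini-Hochberg adjustment, threshold 0.05) in R 4.3.3. DESeq2 1.42.0 was an alternative. CPM are TMM-scaled within the pair. Intron counts were tested with the host gene count as offset, and the interaction over all 12 columns. Single values per library were compared by exact permutation. Chloroplast protein-coding counts ranged from 808 to 16025 per replicate, which limits precision. The procedure was tested on simulated data. Sequences came from the RefSeq TAIR10.1 genome.

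The members and gene lists were chosen with earlier results of these data known. Named genes are all members past the threshold, a set of 27 members spanning the complexes whatever their values, and the 3 highest per length in each group. Deviations from the group means correlated at -0.27, -0.13 and 0.40 between same-numbered lsm4 and WT Col replicates and at -0.26, 0.52 and 0.48 between lsm5 and WT C24 replicates. Not every pair was above 0.1, so numbers were not taken as pairs. Tags in the descriptions pair libraries otherwise in the Col pair, and no label says what a tag marks.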

Additional observations from a re-analysis of the deposited data

Results flagged for a closer look

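The change in lsm5 differed from the change in lsm4 for 2 distinct chloroplast genes, by a test of the difference itself. For rpoB the lsm5 change minus the lsm4 change was 2.09 on the log2 scale (SE 0.53, adjusted p = 0.0239, edgeR), with all 3 lsm5 libraries above all 3 WT C24 libraries and all 3 lsm4 libraries below all 3 WT Col libraries. For rrn5S it was -4.20 (SE 1.06, adjusted p = 0.0236, edgeR), with all 3 lsm5 libraries below all 3 WT C24 libraries and overlap between lsm4 and WT Col. The lsm5 values of rrn5S rest on 1, 23 and 2 reads. Age, medium and accession differ between the pairs and cannot be told apart from the mutated gene.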

How the results depend on the processing

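Beside 3 chloroplast genes called in lsm4, 1 in lsm5 and 2 in the interaction, scaling to chloroplast protein-coding reads gave 0, 5 and 0. Those 5 in lsm5 were psbA and rrn5S, lower, and rpl16, rpl32 and rpoB, higher. That scaling moved the median over all genes to 1.54 in lsm5. Without it rpl16, rpl32 and rpoB were fitted at 0.32, 0.66 and 0.76, and none was called. Without the libraries that stand apart, an alternative chosen after seeing the data, the counts were 7, 20 and 11. Leaving out 1 replicate gave 0 to 4 in lsm4, 0 to 8 in lsm5 and 0 to 5 in the interaction. In lsm5, testing without the low-count filter gave 5 and DESeq2 gave 9. With the replicate number as a block the counts were 3, 8 and 2, and 0 introns were called in either pair; no label says what a number marks. Blocking by the Roman numeral or letter of the descriptions, of which each pair of groups shares only 2, gave 8 in lsm5 and 15 in lsm4, all lower, with psaA, psaB, psbC, rbcL, petD and 3 rRNAs among them. Within the shared numerals the chloroplast share was 2.67% in lsm4 1 against 4.57% in WT Col 2, and 0.874% in lsm4 3 against 1.3% in WT Col 3. The log2 ratio of chloroplast shares in lsm4 was -0.67, ranged from -1.61 to 0.51 when 1 replicate was left out, with the sign turned without WT Col 2, and was -0.51 within replicate numbers under the block. Without the libraries that stand apart it was -0.73 in lsm4 and -2.33 in lsm5. In lsm5 it was -2.41, from -3.45 to -2.01, and -2.67 under the block. Without the host gene offset 1 intron was called in lsm4, that of rpl16 (log2 change -1.64, adjusted p = 0.0112), against 0.41 with it; that fit also holds the gene's own change. For the other reversals and losses the cause was not tested. Low read counts limit the tests: 58 distinct members in lsm4 and, in lsm5, all 11 NDH genes and most tRNA and ribosomal protein genes were not tested.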
